A study of Homo sapiens with 6 samples.

Results

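The genes described here are 40 factors that make the cytosolic ribosome, in BT549 cells treated with AS1842856 or DMSO. They were chosen as a fixed list of gene symbols that act in ribosomal RNA (rRNA) transcription, rRNA processing and subunit assembly. All 40 symbols were found among the 58735 genes of the count table, and all 40 passed the filter on low counts, which left 14338 genes. BT549 cells are a widely grown line from a basal-like breast tumor. AS1842856 is a small molecule that hinders DNA binding by FOXO1, a forkhead transcription factor. The study proposes that it acts as a modulator of FOXO1, not solely as an inhibitor. RNA-Seq was done on 3 libraries from cells given DMSO, the solvent control, and 3 from cells given AS1842856, all collected after 48 h. The AS1842856 concentration was 200 nM per the labels, the study's methods name a higher one, and the difference was not resolved here. The labels name no genetic change, and the compound was used in a single cell line at a single time. The libraries held 22050288, 15289500 and 18580205 counts (DMSO replicates A, B and C) and 16643243, 22981832 and 17888328 counts (AS1842856 replicates A, B and C). Of 6 marker genes examined, VIM, a mesenchymal marker, lay between 198 and 263 FPKM, and the oestrogen and progesterone receptor genes ESR1 and PGR had at most 1 and 4 counts in any library. ERBB2 (HER2) was measurable at 409 to 1021 counts, or 2.29 to 4.71 FPKM. The leukocyte marker PTPRC had 13 to 74 counts and the endothelial marker PECAM1 at most 1.

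Ribosomes are built in the nucleolus. RNA polymerase I transcribes a long rRNA precursor, which small nucleolar ribonucleoproteins (snoRNPs) modify and a large processome cleaves and folds. Assembly factors then carry the large and small subunits through the nucleus to the cytoplasm. Growing cells spend much of their resources on this pathway, and in tumor cells the transcription factor MYC is a well-known activator of many of its genes.

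AS1842856 treatment was followed by small increases in many of these genes and by few decreases. By edgeR's quasi-likelihood test with Benjamini-Hochberg adjustment (adjusted p under 0.05), 19 of the 40 genes were higher and 2 were lower, and 19 did not pass. Over all genes tested, 27.6% were called higher and 28.4% lower, and 56.0% were called in either direction. The same 19 and 2 genes had an adjusted p under 0.01 in this test, as did 3298 genes that were higher and 3496 that were lower (24.4%) among all genes. The share called in either direction was therefore close to that of all genes (52.5% of the 40), while the higher calls were 47.5% and the lower calls 5.0% of the 40. The median log2 fold change of the 40 genes was 0.11, against 0.0030 for all genes tested. Of the 40, 32 had a log2 fold change above 0, a sign that 50.4% of all genes tested had. The changes were small in size. None of the 40 reached a log2 fold change of 0.5 in either direction, a size that 27.0% of all genes tested reached, and they ran from -0.26 (NIP7) to 0.49 (RRP12). Of the 3871 genes tested that reached this size, 3351 were called. The median standard error was 0.043 for the 40 genes and 0.084 for all genes tested, so these shares do not compare like with like. With 1 library left out, RRP12 passed 0.5 without DMSO replicate B (0.51), AS1842856 replicate A (0.50) or AS1842856 replicate B (0.51), and NOP2, which has few counts, reached 0.55 without DMSO replicate A and was not called. Against a minimum fold of 1.2 in either direction (edgeR's glmTreat), 4 genes were called higher (POLR1C, PES1, RRP12 and UTP20) and 0 lower, where 12.1% and 15.9% of all genes were called. RNA was measured in bulk, so fewer cells expressing a gene and less of its RNA per cell cannot be told apart.

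**Figure D1:**
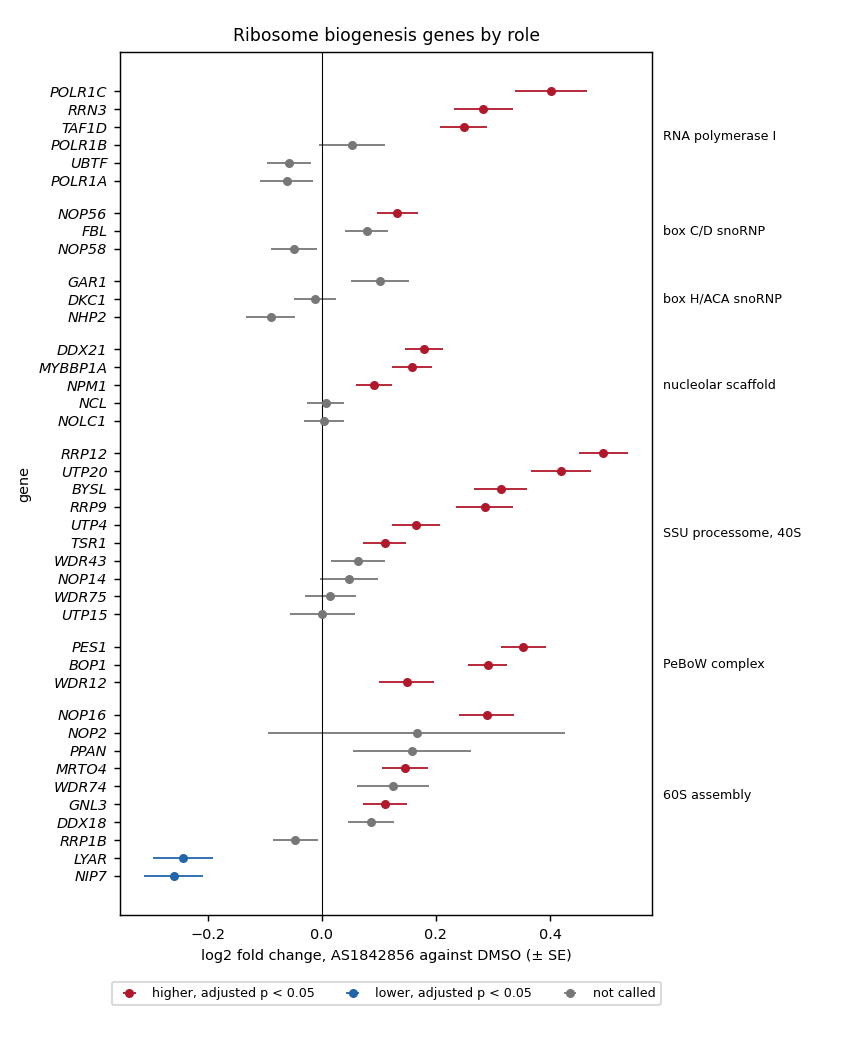
Log2 fold change of each of the 40 ribosome biogenesis genes, AS1842856 against DMSO (x axis), with bars of 1 standard error from edgeR's fit and genes grouped by role. Red points are the 19 genes called higher, blue points the 2 called lower (LYAR and NIP7), and grey points the 19 not called, and every point lies between -0.26 and 0.49.

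RNA polymerase I needs initiation factors that bring it to the rRNA gene promoter, and 3 of its 6 genes on the list rose with AS1842856, a share called that lies below the 56.0% of all genes called in either direction and above the 27.6% called higher. POLR1C encodes a subunit shared by RNA polymerases I and III (ENSG00000171453, chromosome 6 from 43509702 to 43562419). It was at 37.2, 35.6 and 37.3 CPM (counts scaled to library size, with TMM factors) in DMSO and at 48.2, 45.0 and 52.8 CPM with AS1842856. Every AS1842856 library lay above every DMSO library, and the log2 fold change was 0.40 (standard error 0.063, edgeR, adjusted p = 3.21e-09). Exons of POLR1C overlap XPO5 and YIPF3 on the opposite strand over 6.27% and 2.32% of its exon length, and both partners held more counts than POLR1C. XPO5 and YIPF3 had log2 fold changes of 0.077 and 0.098, and neither was called. RRN3, the factor that makes the polymerase competent to initiate, rose by 0.28 on the log2 scale, and TAF1D, a subunit of the promoter selectivity factor SL1, rose by 0.25. The other 3 genes were not called, and whether they differed from the 3 that rose was not tested. POLR1A, the largest subunit (ENSG00000068654, chromosome 2 from 86020216 to 86106155), was at 98.1, 89.7 and 89.9 CPM in DMSO and at 90.4, 87.2 and 89.3 CPM with AS1842856. These ranges overlap, and the log2 fold change was -0.061 with a 95% interval (1.96 standard errors on each side) from -0.15 to 0.030. POLR1B, the second-largest subunit, had a log2 fold change of 0.053 and UBTF, which binds across the rRNA genes, had -0.058, and neither passed the test.

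Of the genes for snoRNPs that modify rRNA, edgeR called 1 of 3 for box C/D and 0 of 3 for box H/ACA. Over all genes tested 27.6% were called higher and 28.4% lower, and neither group was tested as a set. Box C/D snoRNPs methylate the rRNA at ribose positions through FBL (fibrillarin), held on a scaffold of NOP56 and NOP58. NOP56 (ENSG00000101361, chromosome 20 from 2652145 to 2658393) was at 264.8, 275.7 and 274.4 CPM in DMSO and at 283.9, 299.0 and 309.8 CPM with AS1842856. The groups did not overlap, and NOP56 rose by 0.13 in log2 units (standard error 0.036, edgeR, adjusted p = 0.000858). Its partner NOP58 (ENSG00000055044, chromosome 2 from 202265716 to 202303666) was at 159.1, 157.5 and 168.5 CPM in DMSO and at 152.0, 157.7 and 159.4 CPM with AS1842856. The NOP58 groups overlapped, with a log2 fold change of -0.048 (95% interval -0.13 to 0.030). FBL had 0.079 (edgeR, adjusted p = 0.0642), and was called in the fits without DMSO replicate A or without AS1842856 replicate C. The difference between NOP56 and NOP58 was not tested. Box H/ACA snoRNPs convert uridines of the rRNA to pseudouridine through DKC1 (dyskerin). With all libraries and the filter used here, edgeR called none of the 3 genes on the list, against 56.0% of all genes tested. DKC1 had the smallest log2 fold change of these 3 in size, -0.012, with a 95% interval from -0.083 to 0.060. GAR1 (ENSG00000109534, chromosome 4 from 109815510 to 109824740) was at 64.4, 70.3 and 67.0 CPM in DMSO and at 76.5, 70.4 and 69.3 CPM with AS1842856. NHP2 (ENSG00000145912, chromosome 5 from 178149460 to 178153967) was at 124.6, 114.5 and 125.2 CPM in DMSO and at 110.6, 119.8 and 112.0 CPM with AS1842856. Both pairs of groups overlapped in 1 library or more, with log2 fold changes of 0.10 and -0.089 (edgeR, adjusted p = 0.0813 and 0.0674). At an unadjusted p under 0.05 both GAR1 (0.0484) and NHP2 (0.0392) would pass in edgeR's test, and DKC1 would not (0.751). DESeq2 also called none of the 3. Under other edgeR settings NHP2 was called lower with a mean of at least 50 counts (adjusted p = 0.0481), without DMSO replicate B (0.0128) and without AS1842856 replicate B (0.0243), and GAR1 was called higher without DMSO replicate B (adjusted p = 0.0490). Exons of NHP2 overlap RMND5B on the opposite strand over 27.4% of its exon length, and RMND5B held 26.3% as many counts.

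The most abundant genes per length were nucleolar proteins. In deposited FPKM, which divide by gene length, NPM1 had a mean of 489.9 over the 6 libraries, NCL 198.7 and DDX21 123.1, while the lowest of the 40, NOP2, had 0.448. NPM1 (nucleophosmin, ENSG00000181163, chromosome 5 from 171387116 to 171411137) is a histone and ribosome chaperone of the outer nucleolus. It was at 1756, 1812 and 1913 CPM in DMSO and at 1959, 1955 and 1927 CPM with AS1842856. The groups were separated by a small gap, with a log2 fold change of 0.092 (standard error 0.032, edgeR, adjusted p = 0.00858). The call was lost without DMSO replicate A (log2 fold change 0.061, adjusted p = 0.0913 in edgeR's test), with no filter on low counts and with limma on FPKM. NPM1 also has 45 annotated pseudogenes, which held 1.83% as many counts. NCL (nucleolin, ENSG00000115053, chromosome 2 from 231453531 to 231483641), an RNA-binding protein of the nucleolus, was at 1325, 1344 and 1477 CPM in DMSO and at 1374, 1429 and 1363 CPM with AS1842856. The NCL groups overlapped, and the log2 fold change was 0.0070 with a 95% interval from -0.057 to 0.071. DDX21, an RNA helicase of the nucleolus (ENSG00000165732, chromosome 10 from 68956128 to 68985073), was at 565.2, 579.6 and 605.3 CPM in DMSO and at 656.9, 673.5 and 650.5 CPM with AS1842856. It rose by 0.18 on the log2 scale with no overlap between groups (standard error 0.034, edgeR, adjusted p = 9.19e-07). MYBBP1A, a nucleolar partner of several transcription factors, rose by 0.16. NOLC1, a chaperone of snoRNPs (ENSG00000166197, chromosome 10 from 102152176 to 102163871), was at 345.7, 340.5 and 347.1 CPM in DMSO and at 349.0, 358.1 and 329.0 CPM with AS1842856. Its groups overlapped around a log2 fold change of 0.0041 (95% interval -0.066 to 0.074), which fell below 0 under some other settings.

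**Figure D2:**
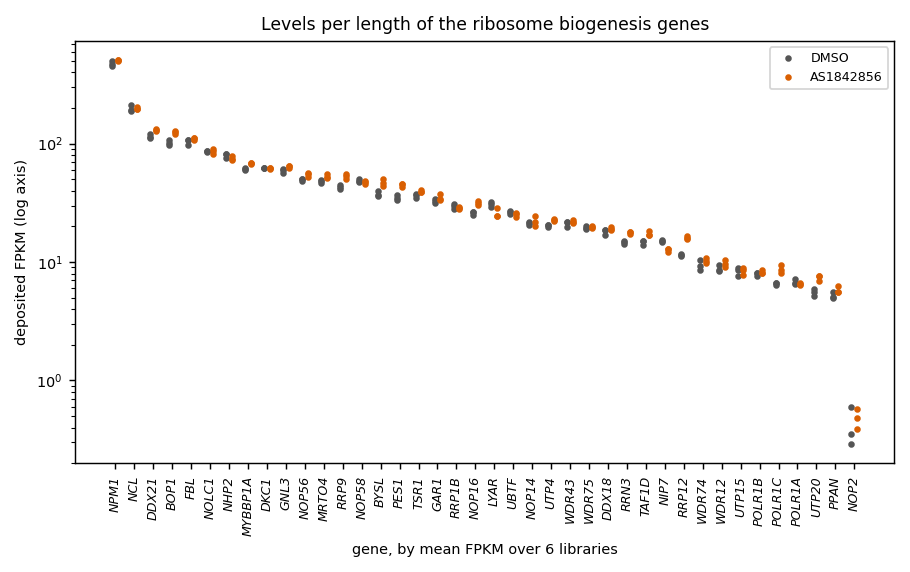
Deposited FPKM of the 40 genes in each library (log axis), with genes in order of mean FPKM, DMSO libraries in grey and AS1842856 libraries in orange. NPM1 is highest at a mean of 489.9 and NOP2 lowest at 0.448, and the spread between genes is far larger than the distance between treatments.

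The small subunit processome is the large particle that cleaves and folds the 5′ part of the rRNA precursor, and 6 of its 10 genes and those of later 40S assembly rose (27.6% of all genes did), with none lower (28.4% of all genes) and each of the 10 above 0 (50.4% of all genes). RRP12, which acts in maturation and export of both subunits, had the highest log2 fold change of the 40 genes (ENSG00000052749, chromosome 10 from 97356358 to 97426076). It was at 95.9, 100.1 and 97.5 CPM in DMSO and at 135.8, 134.5 and 142.7 CPM with AS1842856. The lowest AS1842856 library lay well above the highest DMSO library, with a log2 fold change of 0.49 (standard error 0.043, edgeR, adjusted p = 1.01e-23). UTP20, a very large scaffold protein, rose by 0.42, BYSL (bystin), needed late in 40S assembly, by 0.31, and RRP9, which binds the U3 snoRNP, by 0.29. UTP4 rose by 0.16 and TSR1, a GTPase-like factor of late 40S precursors, by 0.11. The TSR1 call was lost with no filter on low counts, without DMSO replicate A, without AS1842856 replicate C and with limma on unfiltered FPKM. UTP4, UTP15, WDR43 and WDR75 are known as parts of the same subcomplex, which joins the precursor while it is being transcribed, and UTP4 was the member of this set that was called. UTP15 (ENSG00000164338, chromosome 5 from 73565443 to 73583377) was at 48.6, 55.0 and 57.2 CPM in DMSO and at 54.8, 49.8 and 56.2 CPM with AS1842856. The groups overlapped and the log2 fold change was 0.0013, with a 95% interval from -0.11 to 0.11, and fell below 0 under some other settings. WDR43 and WDR75 had 0.064 and 0.015, and NOP14, another processome component, had 0.048. Whether UTP4 differed from the other 3 was not tested. TSR1 overlaps SRR on the opposite strand over 20.7% of its exon length, and SRR held 5.56% as many counts.

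The PeBoW complex of PES1, BOP1 and WDR12 is needed to process the rRNAs of the large subunit, and its 3 genes were called higher, as were 27.6% of all genes tested. PES1 (pescadillo, ENSG00000100029, chromosome 22 from 30576625 to 30607083) was at 160.4, 153.7 and 169.5 CPM in DMSO and at 198.3, 211.1 and 208.4 CPM with AS1842856. The groups were far apart, with a log2 fold change of 0.35 (standard error 0.039, edgeR, adjusted p = 3.47e-16), and BOP1 rose by 0.29. WDR12 (ENSG00000138442, chromosome 2 from 202874782 to 203014798) was at 77.7, 87.1 and 77.1 CPM in DMSO and at 95.1, 88.8 and 83.8 CPM with AS1842856. AS1842856 replicate C lay below DMSO replicate B, and the call was the least stable of the 3, with a log2 fold change of 0.15 (standard error 0.048, edgeR, adjusted p = 0.00526). It was lost with DESeq2 (adjusted p = 0.0580), in the 3 limma fits on FPKM (adjusted p between 0.113 and 0.191) and in 3 of the 6 fits that left out 1 library, without DMSO replicate A, DMSO replicate C or AS1842856 replicate A (adjusted p between 0.0518 and 0.0981, edgeR).

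Of the 10 other large subunit factors, edgeR called 3 higher and 2 lower, and these 2 were the decreases called among the 40 genes. By the same test 27.6% of all genes were higher and 28.4% lower, and this role was not tested as a set. NIP7, which binds pre-60S particles (ENSG00000132603, chromosome 16 from 69337996 to 69343111), was at 71.1, 74.1 and 72.5 CPM in DMSO and at 61.3, 61.8 and 58.5 CPM with AS1842856. Every AS1842856 library lay below every DMSO library, with a log2 fold change of -0.26 (standard error 0.052, edgeR, adjusted p = 3.94e-06). NIP7 overlaps COG8 on the opposite strand over 20.2% of its exon length, COG8 held 22.4% as many counts, and its log2 fold change was 0.15, which was not called. LYAR, a nucleolar zinc finger protein linked to cell growth, fell by 0.24 on the log2 scale (edgeR, adjusted p = 2.24e-05), with no overlap between groups. In the other direction, NOP16 (ENSG00000048162, chromosome 5 from 176383938 to 176388975) was at 71.6, 76.7 and 75.6 CPM in DMSO and at 95.1, 91.4 and 86.9 CPM with AS1842856. It rose by 0.29 on the log2 scale with no overlap between groups (standard error 0.048, edgeR, adjusted p = 3.14e-08). Of 2862 exon bases of NOP16, 344 overlap ARL10 on the opposite strand, which had -0.11 and was not called. HIGD2A, which overlaps NOP16 on the opposite strand over 7.93% of the NOP16 exon length and held 68.9% as many counts, rose by 0.49, and its part in the NOP16 value was not tested. MRTO4, which takes the place of a stalk protein on the pre-60S particle, rose by 0.15, and GNL3 (nucleostemin), a nucleolar GTPase, by 0.11. The GNL3 call was lost under the same 4 settings as that of TSR1. The other 5 genes of this role were not called with all libraries. Their log2 fold changes were 0.086 for the helicase DDX18, 0.12 for WDR74, -0.047 for RRP1B, 0.16 for PPAN and 0.17 for the rRNA methyltransferase NOP2. DDX18 was called in the fits without DMSO replicate B or without DMSO replicate C. WDR74 was called in those without DMSO replicate A or without AS1842856 replicate B.

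The values of NOP2 and PPAN are uncertain. NOP2 was at 2.82, 1.37 and 1.67 CPM in DMSO and at 2.28, 1.84 and 2.69 CPM with AS1842856, the lowest CPM of the 40 genes, and its log2 fold change had a wide standard error, 0.26. Of the NOP2 exon length, 54.4% lies within exons of the gene AC006064.6 on the same strand, and AC006064.6 had 0 counts in the 6 libraries together. PPAN, a nucleolar factor of the large subunit with 13.5 ± 0.917 CPM in DMSO and 15.1 ± 1.12 CPM with AS1842856 (SD, n = 3), shares 56.0% of its exon length with the readthrough gene PPAN-P2RY11, which also had 0 counts. It also shares 3.76% with P2RY11 on the same strand, which held 89.9% as many counts and rose by 0.40 on the log2 scale (edgeR, adjusted p = 0.000683). Whether reads shared by such gene pairs were left uncounted was not tested.

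**Figure D3:**
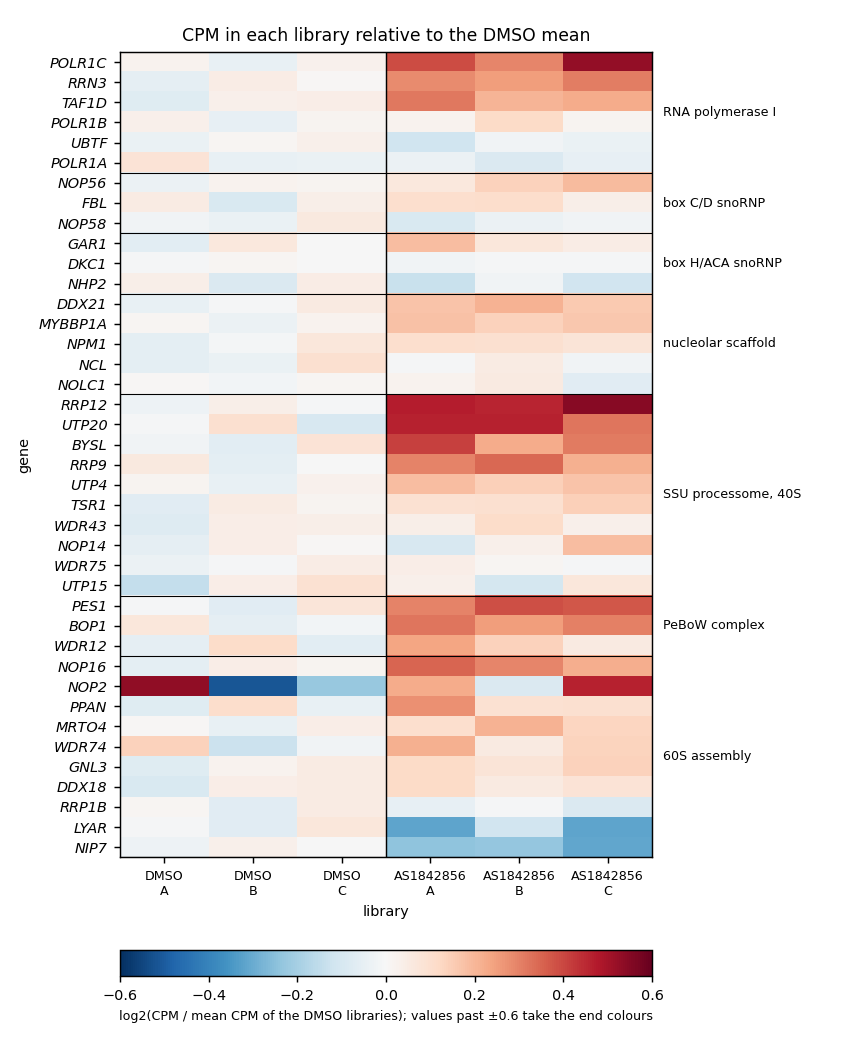
CPM of the 40 genes in each library as log2 of the ratio to the mean of the DMSO libraries, from blue (lower) to red (higher), by role. RRP12, UTP20, POLR1C, PES1 and BYSL are red in each AS1842856 library, NIP7 and LYAR are blue, and NOP2, the gene with the fewest counts, varies most among the DMSO libraries.

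Across libraries, the summed level of the 40 genes was 8495, 8573 and 8947 CPM in DMSO replicates A, B and C and 9292, 9357 and 9227 CPM in AS1842856 replicates A, B and C. The groups did not overlap, with 8672 ± 241.7 CPM in DMSO and 9292 ± 64.9 CPM with AS1842856 (SD, n = 3). NPM1 made up between 20.7% and 21.4% of this sum in each library. The DMSO libraries were not alike, since 14 genes lay above their DMSO mean in replicate A, 18 in replicate B and 28 in replicate C, against 30, 30 and 29 in the AS1842856 libraries. In single genes the 3 AS1842856 libraries lay above the 3 DMSO libraries in 19 of the 40 genes and below them in 2, and over all genes tested this was so for 29.5% and 30.3%, or 59.9% in either direction. DDX18 was separated but not called (adjusted p = 0.0603, edgeR), and WDR12 was called but not separated. Exact two-sided permutation of 6 libraries reaches p = 0.1 at the lowest, so no gene was tested that way. Of the 21 calls, 17 held in each of the 6 fits that left out 1 library. The 4 lost in 1 fit or more were GNL3, NPM1, TSR1 and WDR12, and between 17 and 21 genes were called higher. Without DMSO replicate A the median log2 fold change of the 40 genes was 0.088.

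Several genes of the list carry snoRNA genes within them. By GENCODE release 29, 36 snoRNA genes (a Cajal body RNA gene in POLR1C among them) lie within 10 of the 40 genes on the same strand, with 8 in TAF1D, 6 in GNL3 and 5 in NOP56. The count table held few reads for these short RNAs, 532 counts over the 36 genes and 6 libraries, and these RNAs were not compared. Among the 10 host genes, 5 rose and none fell in edgeR's test, with a median log2 fold change of 0.11. Among the other 30 genes, 14 rose and 2 fell, with a median of 0.11. Over all genes tested 27.6% were higher and 28.4% lower, and the difference between host genes and the others was not tested.

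MYC, whose protein binds the E-box CACGTG, fell, while 19 of the 40 genes rose. MYC (ENSG00000136997) was at 193.0, 172.2 and 187.5 CPM in DMSO and at 72.9, 73.7 and 73.6 CPM with AS1842856. Every AS1842856 library lay far below every DMSO library, with a log2 fold change of -1.33 (standard error 0.043, edgeR, adjusted p = 1.47e-84). A promoter window from RefSeq (GRCh38.p14, 250 bases before to 50 after the start) was matched to 34 of the 40 genes. CACGTG, which reads the same on both strands, was found in 11 of these windows (32.4%), against 10.1% of the windows of all genes tested and 7.43% of all 27305 windows. It was in 28 of 102 windows of other ribosome biogenesis genes (27.5%) and in 3 of 64 of cytosolic ribosomal protein genes (4.69%). The 11 genes with the motif held 7 higher and 0 lower calls by edgeR, with log2 fold changes from 0.048 (NOP14) to 0.42 (UTP20) and a median of 0.16. The 23 genes without it held 10 higher and 2 lower calls and a median of 0.10. Of all genes tested 27.6% were higher and 28.4% lower, and the difference between the genes with and without the motif was not tested. The FOXO motif GTAAACA, searched on both strands and not overlapping CACGTG in its letters, was in 1 window (NOP14), 2.94% against 2.22% for all genes tested, 3.41% for all windows and 3.92% for the other ribosome biogenesis genes. These matches are a description of letters in the windows, and binding was not measured.

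The stretches around the E-box are shown for each of these 11 genes. The motif began between base -16 (UTP4) and base 36 (NOP2), counted from the RefSeq start as 1 and the base before it as -1. The RefSeq start need not be the outer end of the gene in GENCODE. The stretches were selected by the motif, from genes beyond those named by rule, after values were seen. Each line gives 12 bases on either side where the window allowed it, 5′ to 3′ on the strand of the gene, with the E-box in capitals.
UTP20, chr12:101280083-101280112, plus strand, higher: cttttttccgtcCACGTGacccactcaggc
PES1, chr22:30591880-30591909, minus strand, higher: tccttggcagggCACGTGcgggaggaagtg
BYSL, chr6:41921515-41921544, plus strand, higher: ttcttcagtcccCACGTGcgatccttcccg
RRP9, chr3:51941892-51941921, minus strand, higher: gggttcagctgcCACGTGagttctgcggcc
UTP4, chr16:69132621-69132650, plus strand, higher: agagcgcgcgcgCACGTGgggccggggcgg
MYBBP1A, chr17:4555340-4555369, minus strand, higher: ggggccggagcaCACGTGtttcgtgtttcg
MRTO4, chr1:19251807-19251836, plus strand, higher: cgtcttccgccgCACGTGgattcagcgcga
NOP2, chr12:6568242-6568268, minus strand, not called: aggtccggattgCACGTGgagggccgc
FBL, chr19:39846356-39846385, minus strand, not called: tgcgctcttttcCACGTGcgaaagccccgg
WDR43, chr2:28894658-28894687, plus strand, not called: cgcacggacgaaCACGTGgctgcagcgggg
NOP14, chr4:2963374-2963403, minus strand, not called: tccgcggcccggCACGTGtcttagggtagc

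A wider list of 123 other ribosome biogenesis factors, none of them among the 40, had more higher than lower calls as well. In edgeR's test 55 rose and 17 fell (44.7% and 13.8%), with a median log2 fold change of 0.095, and 51 were not called. The share called in either direction, 58.5%, was close to the 56.0% of all genes tested, of which 27.6% were higher and 28.4% lower. The wider list had changes of at least 0.5 in 5 genes. DHX37, a helicase of the small subunit processome, rose by 0.75 from 67.0 ± 2.86 to 112.9 ± 2.25 CPM (SD, n = 3). NOP53, a large subunit factor that recruits the exosome, rose by 0.67, POLR1D, a subunit of RNA polymerases I and III that pairs with the POLR1C product, rose by 0.63, and RRP15, a large subunit factor, rose by 0.57. DDX47, the fifth, had -0.54 and was not called (edgeR, adjusted p = 0.0826). The largest called decreases were -0.33 in TEX10, -0.26 in EXOSC7, a subunit of the RNA exosome, and -0.26 in TAF1B, a subunit of SL1 like TAF1D. Factors of the large subunit had 27 higher and 6 lower calls of 49, those of the small subunit 18 and 3 of 43, exosome genes 6 and 3 of 14, RNA polymerase I genes 3 and 3 of 9, and snoRNP assembly genes 1 and 2 of 8. Fewer genes of this list were called lower with DESeq2 and with limma on FPKM without a filter (11 each).

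Genes for the ribosomal proteins that these factors assemble were also measured. Of 80 cytosolic ribosomal protein genes, 78 were higher and 0 lower in edgeR's test, against 27.6% and 28.4% of all genes tested, with a median log2 fold change of 0.29 and a lowest value of -0.039 (RPS26). DESeq2 called none lower either, and RPS26, the only one below 0, had an unadjusted p of 0.325 in edgeR's test. Their summed level was 5.46% ± 0.168 of the library in DMSO and 6.71% ± 0.110 with AS1842856 (SD, n = 3), with no overlap between groups. Whether reads were shared with processed copies of these genes was not tested, so single values are uncertain. Noncoding genes whose introns hold snoRNAs rose as well, 11 of 13 with none lower by edgeR or DESeq2 (27.6% and 28.4% of all genes by edgeR), all 13 above 0 and a median of 0.36, and EPB41L4A-AS1 had the largest of these rises, 1.14. Both medians lay above that of the 40 genes, and no test of the difference between the lists was made.

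**Figure D4:**
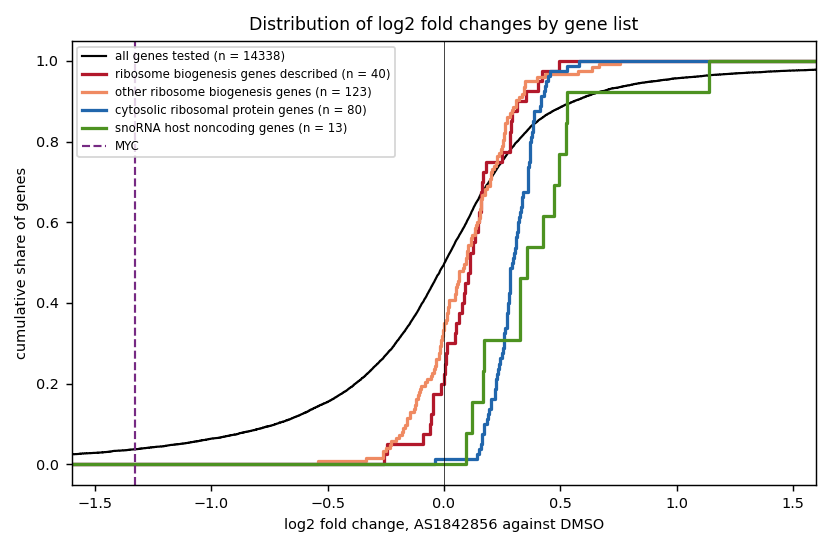
Cumulative share of genes (y axis) at or below each log2 fold change, AS1842856 against DMSO (x axis, with more extreme genes beyond its ends), for all 14338 genes tested, the 40 genes described, 123 other ribosome biogenesis genes, 80 cytosolic ribosomal protein genes and 13 snoRNA host genes. The medians are 0.0030, 0.11, 0.095, 0.29 and 0.36 in that order, and the dashed line marks MYC at -1.33.

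**Figure D5:**
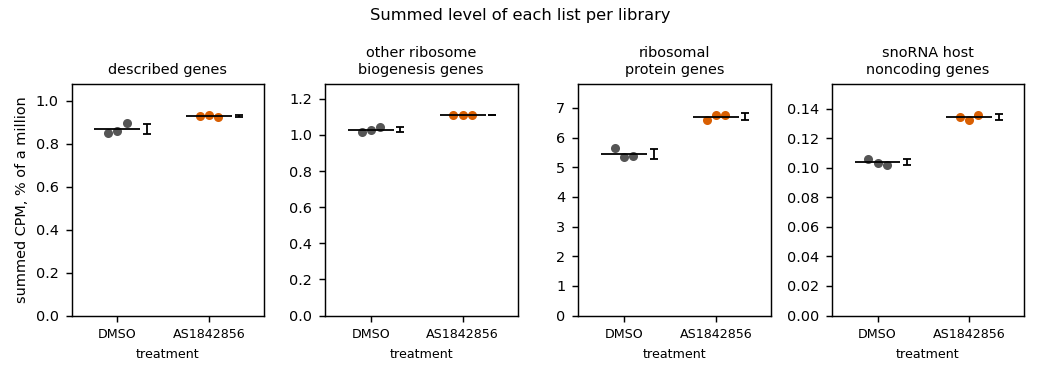
Summed TMM-normalized CPM of each list as a percent of the library (y axis, from 0) in the 3 DMSO and 3 AS1842856 libraries, with the mean as a line and the SD as a bar beside it. In each list the AS1842856 libraries lie above the DMSO libraries, at 0.929% against 0.867% for the 40 genes and 6.71% against 5.46% for the ribosomal protein genes.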

How the data were processed

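BT549 RNA-Seq libraries (3 DMSO, 3 AS1842856) were grouped by the treatment label, and replicate letters were taken from the titles. Base calling was done with CASAVA, and the authors mapped reads with STAR, while the submitters' processing notes also name Bowtie 0.12.2 and the builds GRCh38 and hg38. The counting tool, annotation and use of strand are not given in the sources used here, so reads from genes that overlap could be shared. The authors deposited raw counts per gene, without normalization, and FPKM for each library, scaled by the authors to gene length and library size. All 58735 gene identifiers were found in GENCODE release 29 (Ensembl 94, GRCh38), which gave symbols and positions.

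For the counts, edgeR 4.0.16 was run in R 4.3.3: filterByExpr (minimum count 10, minimum total count 15), TMM, robust glmQLFit and glmQLFTest without covariates, with Benjamini-Hochberg adjustment over 14338 genes and a threshold of 0.05. The study's methods name DESeq2, which was an alternative here (1.42.0), and limma was 3.58.1. The fits were tested on simulated data. A standard error is the log2 fold change divided by the square root of F. The common biological coefficient of variation was 0.0374 at totals from 15289500 to 22981832 counts. The study calls the libraries biological replicates, and pairs within a group differed by more than counting noise (chi-square per degree of freedom 2.38 to 3.28). Intervals are for the log2 fold change between the groups, built from this standard error, and cover no variation beyond these libraries.

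The members, the other lists and the tests were chosen with earlier results of these data known, and the lists were written from general knowledge. Every member is accounted for. Within each role the members with the lowest and the highest log2 fold change, and the 3 with the highest mean FPKM, are given in every library, and of the other lists the 3 lowest and 3 highest changes among called genes were taken, of which some are printed. Genes outside this rule were named after their values were seen. Each library was left out once. Other alternatives were DESeq2, edgeR scaled by DESeq2's method or by totals only, edgeR on unfiltered counts or on genes averaging 50 counts or more, and a block for the replicate letter. Deposited FPKM were tested with limma-trend, with a pseudocount of 1 or 0.1 before log2 where mean FPKM was 0.5 or higher, and with a pseudocount of 1 on all genes. An adjusted p under 0.01 and a minimum fold of 1.2 were also used. Gene sets were not tested. One result is not reported here.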

Additional observations from a re-analysis of the deposited data

How the results depend on the processing

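The median of the 40 genes stayed above 0 under the 15 alternatives other than the minimum fold. In each of them 17 of the 21 calls held, and no call was reversed. Between 17 and 21 genes were called higher and 2 or 3 lower with each library left out, and with all libraries the higher calls were 18 with DESeq2, 16 with no filter and 15 with limma on unfiltered FPKM. Deviations of same-letter libraries from their group means correlated at 0.042, -0.012 and -0.0033, and those of different letters from -0.028 to 0.030. No shared deviation by replicate letter was seen. With 3 libraries per group, these values cannot show whether the letters mark libraries prepared together. With the replicate block 19 genes were higher and 2 lower, and the 21 calls were shared. Against a minimum fold of 1.2 the higher calls were 4 and the lower 0, a stricter question by construction. With each library left out, the median log2 fold change ran from 0.088 to 0.12 for the 40 genes, from 0.072 to 0.094 for the other biogenesis genes and from 0.34 to 0.39 for the snoRNA host genes, and 0 or 1 of the 40 genes reached 0.5. The median of the snoRNA host genes was 0.33 with limma on log2(FPKM + 1), with and without the filter, where the pseudocount shrinks changes. Other biogenesis genes called lower were 11 with DESeq2 and 11 with limma on log2(FPKM + 1) without a filter, and the cause was not tested.

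Values near 0 changed sign. NOLC1 had a log2 fold change of -0.0098 with no filter, -0.0013 with a mean of at least 50 counts and from -0.024 to 0.036 with each library left out. UTP15 had -0.0027 with library totals alone, -0.013 with no filter, -0.0041 with a mean of at least 50 counts and from -0.074 to 0.055 with each library left out. NCL had -0.0069 with no filter and from -0.026 to 0.052 with each library left out. None of these passed the test. Scaling moved the median of all genes from 0.0030 to 0.0055 (DESeq2 size factors) and -0.00086 (library totals), and the count of all genes called ran from 6523 to 8030 with all libraries and from 7427 to 7678 with each left out.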
